A study of Mus musculus with 4 samples.

Results

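Rrad and subunits of the L-type calcium channel of skeletal muscle were followed across tibialis anterior (TA) muscle of wild-type (WT) and Fgf21 knockout (Fgf21KO) mice after sham surgery or denervation. The set was taken by symbol and held 5 genes: Rrad, Cacna1s, Cacnb1, Cacng1 and Cacna2d1. Rrad was selected on its denervation response in these same libraries, and the channel subunits were added as the target of its protein, so every denervation ratio of these genes is given as a description, without a test. Of the 5 genes, 3 were found among the 13825 genes of the count table (Rrad, Cacnb1 and Cacna2d1), and all 3 passed the minimum mean count of 10 set for testing, as did 13084 genes in all. Cacna1s and Cacng1 were not analysed here.

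Muscle L-type channels sit in the transverse tubules, where they sense the voltage of the membrane and trigger calcium release from the sarcoplasmic reticulum. Cacna1s encodes their pore and voltage sensor, Cacnb1 the cytoplasmic β1 subunit that brings the pore to the membrane, Cacna2d1 the extracellular α2δ-1 subunit, and Cacng1 the γ1 subunit. RRAD, the product of Rrad, is a small GTP-binding protein of the RGK family (RAD, REM and GEM/KIR), whose members bind β subunits and inhibit L-type calcium currents.

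Muscle was taken from adult male mice 14 days after surgery and fell into 4 groups. WT muscle was either sham (WS) or denervated (WD), and so was Fgf21KO muscle (FGF21KO in the labels), as KS and KD. Fgf21KO mice lacked Fgf21 in the whole body, and WT mice were C57BL/6J. Denervated legs had a piece of the left sciatic nerve removed, and the opposite leg served as the control, which the paper describes as sham-operated and the labels as left innervated. RNA of 4 muscles was pooled into 1 library per group, so differences between groups have no replicate check, and the intervals below cover counting error only (95%). Because Fgf21 itself was not analysed here, the genotype labels could not be checked on the deleted gene.

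Total counts ran from 25249879 (WS) to 34141303 (KS). The 13 mitochondrially encoded protein genes took 27.0% and 30.4% of the counts in the sham libraries and 19.4% and 20.6% in the denervated ones. Levels are given as CPM (read counts scaled to a common library size) after scaling by the trimmed mean of M-values (TMM), under which the median log2 ratio of all genes tested was 0.01 in both WD over WS and KD over KS. With scaling by total counts alone these medians were 0.29 and 0.36. The fast-fibre myosin Myh1, the marker of fast muscle analysed, was at 15600 to 24300 CPM in the 4 libraries.

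Rrad had few reads in sham muscle and many in denervated muscle. The sham libraries held 24 (WS) and 25 (KS) counts of it, and the denervated ones 6366 (WD) and 6124 (KD). In CPM, the level was 1.03 (0.662 to 1.54) in WS and 195 (190 to 200) in WD, against 0.842 (0.545 to 1.24) in KS and 198 (193 to 203) in KD. Both denervated libraries were high and both sham libraries low, and within each surgery the intervals of the genotypes overlapped. The order of the levels was therefore KS, WS, WD and KD, in which WS and WD alone were neighbours separated beyond counting error.

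The CPM of Rrad was 189-fold higher in WD than in WS, a log2 ratio of 7.47 (6.99 to 8.20). Log2 ratios here include a prior count of 2, which pulls a ratio against few reads towards 0, while folds and intervals come from the counts without it. In Fgf21KO muscle it was 235-fold higher in KD than in KS, with a log2 ratio of 7.77 (7.31 to 8.51). Among the 13084 genes, Rrad ranked second from the top in WD over WS, between Plekhh1 at 7.88 and Runx1 at 6.40. In KD over KS its log2 ratio was above the 7.48 of Ces2c, while the fold without the prior count was higher for Ces2c (299) than for Rrad (235), and their intervals overlapped. With so few reads in the sham libraries, the fold depended on the small number of counts below it and on what was added to them. Differences of the deposited log2 values were 6.57 in WD over WS and 6.73 in KD over KS. Those values add 1 after each count is multiplied by a library factor, 0.043 in WS and 0.0336 in KS. That 1 therefore weighs more against the sham reads than the prior count of 2.

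**Figure D1:**
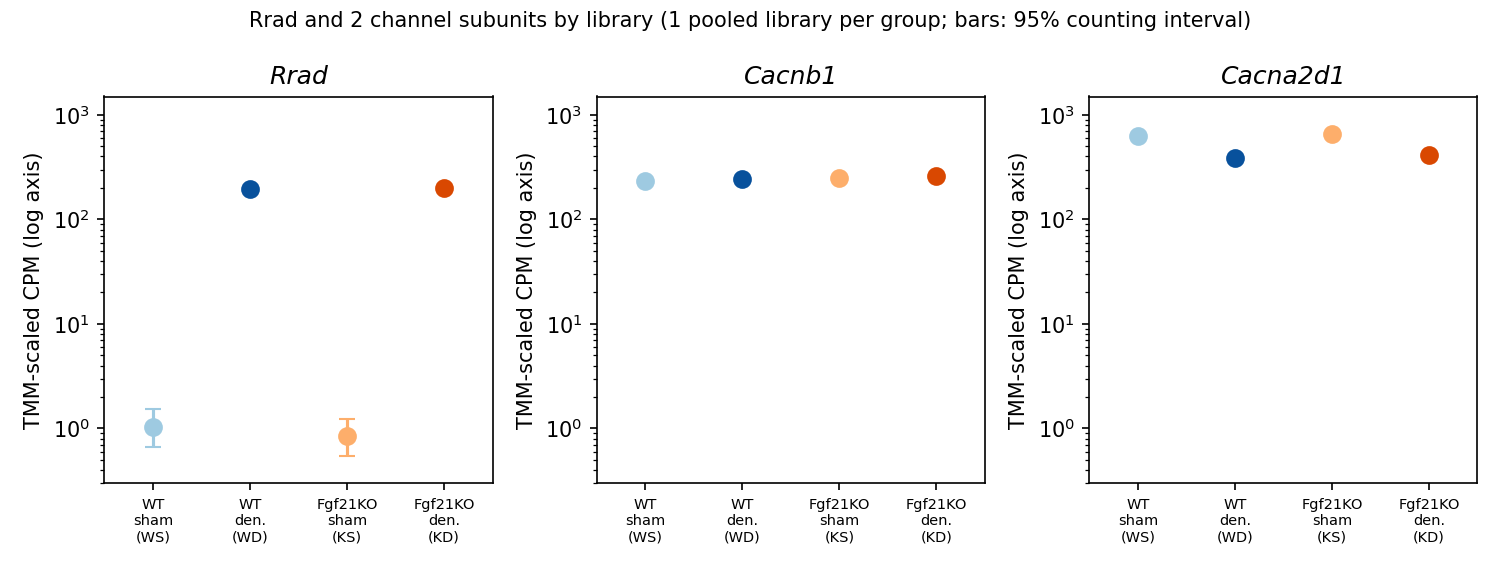
TMM-scaled CPM on a log axis of Rrad, Cacnb1 and Cacna2d1 in each of the 4 pooled libraries, with bars for the 95% counting interval (smaller than the point where not visible). Rrad sat near 1 CPM in both sham libraries and near 200 in both denervated ones, Cacnb1 lay between 231 and 258 in the 4 libraries, and Cacna2d1 was lower in the denervated libraries.

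Cacnb1 differed little between libraries. Counts went from 5375 in WS to 7999 in WD, and from 7378 in KS to 7973 in KD. The corresponding CPM of WS, WD, KS and KD were 231 (225 to 238), 245 (240 to 250), 248 (243 to 254) and 258 (252 to 263). WS was lowest and KD highest, and the intervals of WD and KS overlapped, as did those of KS and KD. The log2 ratio was 0.08 (0.03 to 0.13) in WD over WS and 0.05 (0.01 to 0.10) in KD over KS. In WD over WS, 11.5% of all genes had a smaller ratio in size. With total counts alone the ratios were 0.37 and 0.41, close to the shift of the median gene under that scaling.

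Cacna2d1 was lower in both denervated libraries. WT muscle gave 14599 counts in WS and 12725 in WD, and Fgf21KO muscle 19347 in KS and 12762 in KD. Scaled to CPM, it stood at 628 (618 to 639) in WS and 390 (383 to 397) in WD, against 651 (642 to 661) in KS and 413 (405 to 420) in KD. The sham and denervated libraries did not overlap, and all 4 intervals were separate, in the order WD, KD, WS and KS. Denervated muscle held 0.62 of the sham level in WT and 0.633 in Fgf21KO, with log2 ratios of -0.69 (-0.72 to -0.65) and -0.66 (-0.69 to -0.63). A ratio of this size lay inside the ordinary range of the table, at percentile 14.3 of all genes in each genotype. By total counts alone the ratios were -0.41 and -0.30, the direction being the same.

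A ratio of at least 2-fold was reached by 1 of the 3 genes, Rrad, in WD over WS, where 14.8% of all genes reached it, and by the same gene in KD over KS, where 13.6% did. Rrad was chosen on these contrasts, and nothing is read from those counts. Muscle was analysed as bulk tissue, so fewer cells of a type and less RNA per cell cannot be told apart in any of these ratios.

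**Figure D2:**
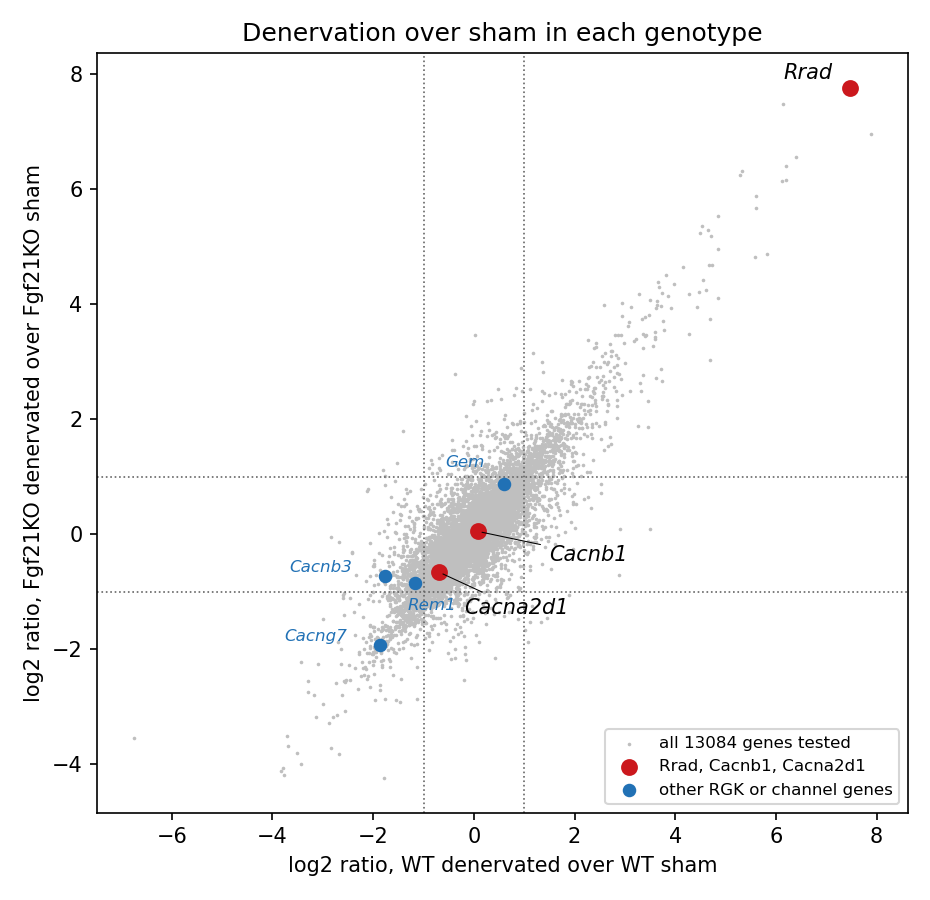
Each point is 1 of 13084 genes, placed by its log2 ratio of denervated over sham in WT (x axis) and in Fgf21KO (y axis), with dotted lines at 2-fold. Rrad lay at the upper end on both axes (7.47 and 7.77), Cacnb1 near 0 on both, and Cacna2d1 at -0.69 and -0.66.

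Genotype was not used to choose the genes, and its effect was tested with edgeR's quasi-likelihood test in a model that adds genotype to surgery and leaves 1 residual degree of freedom from the 4 libraries. The 3 genes were not called at an adjusted p below 0.05 and a 2-fold change, a criterion met by 0.176% of all genes tested. The log2 effect of Fgf21KO was 0.00 for Rrad (adjusted p = 0.997), 0.09 for Cacnb1 (adjusted p = 0.845) and 0.07 for Cacna2d1 (adjusted p = 0.903). These values do not show that the genotypes have equal levels.

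Ratios between single libraries bound the difference for counting error. Between the denervated libraries (KD over WD), the log2 ratio was 0.02 (-0.03 to 0.07) for Rrad, 0.07 (0.03 to 0.12) for Cacnb1 and 0.08 (0.05 to 0.12) for Cacna2d1. Between the sham libraries (KS over WS), it was -0.28 (-1.16 to 0.58) for Rrad, 0.10 (0.05 to 0.15) for Cacnb1 and 0.05 (0.02 to 0.08) for Cacna2d1. Denervated Rrad was thus fixed closely by its reads, while 24 and 25 counts left the sham comparison wide. With total counts alone, Cacna2d1 in KS over WS changed sign to -0.03 and Cacnb1 came to 0.02. A 2-fold ratio was reached by 0 of the 3 genes in either genotype comparison, beside 2.04% of all genes in KS over WS and 1.55% in KD over WD.

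The denervation log2 ratio in Fgf21KO minus that in WT was 0.30 (-0.49 to 1.13) for Rrad, -0.03 (-0.10 to 0.04) for Cacnb1 and 0.03 (-0.02 to 0.08) for Cacna2d1. Under TMM scaling, all 3 intervals held 0. With total counts alone the differences were 0.36 for Rrad, 0.05 for Cacnb1 and 0.10 for Cacna2d1. The shifts of Cacnb1 and Cacna2d1 went beyond counting error. Of all genes, 69.9% had a smaller difference than Rrad, 9.6% than Cacnb1 and 9.71% than Cacna2d1. The design leaves no residual degree of freedom to test this difference.

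To set the level of Rrad against that of the subunits, CPM were divided by the length of the longest coding transcript in GENCODE M21, which was 1577 bases for Rrad, 3396 for Cacnb1 and 7436 for Cacna2d1. On this scale the sham libraries had 0.655 (WS) and 0.534 (KS) CPM per kb of Rrad, and the denervated ones 124 (WD) and 126 (KD). In the order WS, WD, KS and KD, Cacnb1 stood at 68.1, 72.1, 73.1 and 75.9, and Cacna2d1 at 84.5, 52.4, 87.6 and 55.5. Rrad was therefore the lowest of the 3 genes in sham muscle and the highest in denervated muscle, in both genotypes.

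For each unit of Cacnb1, which encodes the subunit type that RGK proteins bind, sham muscle held 0.00962 (0.00616 to 0.0143) of Rrad in WS and 0.0073 (0.00472 to 0.0108) in KS. Denervated muscle held 1.71 (1.66 to 1.77) in WD and 1.65 (1.60 to 1.71) in KD. The Cacna2d1 to Cacnb1 ratio went the other way and crossed 1, from 1.24 (1.20 to 1.28) in WS to 0.727 (0.706 to 0.747) in WD, and from 1.20 (1.17 to 1.23) in KS to 0.731 (0.711 to 0.752) in KD. Rrad to Cacna2d1 was 0.00775 in WS and 0.00609 in KS, and 2.36 (2.29 to 2.43) in WD and 2.26 (2.19 to 2.33) in KD. These ratios between genes depend on which transcript lengths are taken. Median coding transcript lengths, chosen after seeing the data, gave 1.49 and 1.44 for Rrad to Cacnb1 in WD and KD, and every ratio stayed on its side of 1.

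**Figure D3:**
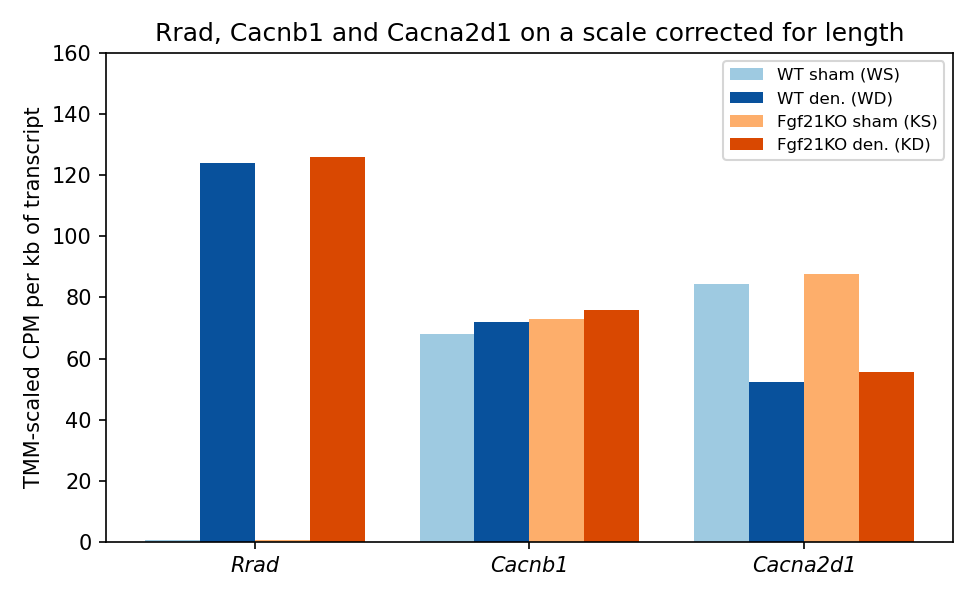
Bars, from 0, give TMM-scaled CPM per kb of the longest coding transcript for Rrad, Cacnb1 and Cacna2d1 in the 4 pooled libraries. Rrad was under 1 in both sham libraries and above both subunits in the denervated ones (124 and 126).

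Within the RGK family, Rrad stood apart from its relatives. Rem1 and Gem encode the other RGK proteins in the table, and Rem2 was not analysed here. Rem1 had 40, 24, 64 and 36 counts in WS, WD, KS and KD, and Gem had 25, 54, 22 and 44. Denervated libraries were lower for Rem1 and higher for Gem in each genotype. The log2 ratio of Rem1 was -1.16 (-2.02 to -0.46) in WD over WS and -0.85 (-1.52 to -0.28) in KD over KS. In the additive model Rem1 fell with denervation by 1.04 on the log2 scale (adjusted p = 0.0114, edgeR). The call was lost with total counts alone (-0.72, adjusted p = 0.083) and by DESeq2's Wald test (-1.06, adjusted p = 0.159). Gem had log2 ratios of 0.59 (-0.09 to 1.37) and 0.88 (0.17 to 1.75), with a model value of 0.77 (adjusted p = 0.0703, edgeR) that passed with total counts alone (1.09, adjusted p = 0.0177).

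Per kb, Rem1 lay between 0.442 and 1.30 CPM and Gem between 0.369 and 0.825 CPM over the 4 libraries. In sham muscle the 3 RGK genes lay within 0.369 to 1.30 CPM per kb, and Rrad made up 29.4% of their sum in WS and 24.3% in KS. In denervated muscle it made up 99.0% in WD and 98.9% in KD. The change in this share came from Rrad, since the levels of its relatives per kb stayed at or under 1.30 CPM in all 4 libraries.

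Among the β subunits, Cacnb1 held 97.7% (WS) and 98.9% (KS) of the summed level per kb of the 3 β genes in sham muscle and 99.4% in both denervated libraries. The other β genes were minor and passed the denervation test downward. Cacnb3 had 88, 35, 57 and 35 counts in WS, WD, KS and KD and fell by 1.31 on the log2 scale in the additive model (adjusted p = 0.00125, edgeR), a value that came to -0.99 with total counts alone and then missed the 2-fold limit. Its log2 ratio was -1.76 (-2.43 to -1.24) in WT and -0.73 (-1.41 to -0.13) in Fgf21KO, which was under 2-fold, and the difference of 1.03 (0.23 to 1.89) could not be tested beyond counting error. Cacnb2, with 21, 8, 13 and 9 counts, fell by 1.26 (adjusted p = 0.0437, edgeR), and its call was lost with total counts alone (-0.95, adjusted p = 0.131). DESeq2's Wald test gave Cacnb2 no adjusted p. Its ratio in Fgf21KO alone was -0.49 (-2.00 to 0.75), an interval that held 0. Cacnb4 was not analysed here.

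For the γ subunits, Cacng7 was the gene analysed, a member of the γ family known mainly as a regulator of glutamate receptors. Its counts went from 615 to 235 in WT and from 897 to 243 in Fgf21KO, and both denervated libraries were lower. Its CPM fell to 0.272 of the sham level in WT and 0.26 in Fgf21KO, with log2 ratios of -1.87 (-2.10 to -1.66) and -1.93 (-2.15 to -1.74). In the additive model it fell by 1.91 on the log2 scale (adjusted p = 4.77e-14, edgeR), and the call was kept under the scaling, filter and DESeq2 alternatives run. Per kb it reached 12 CPM in WS and 13.7 in KS, below Cacnb1 and Cacna2d1 in the same libraries, and 3.25 and 3.55 in WD and KD.

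Of the pore genes, 2 were analysed, both at low levels. Cacna1d, an L-type pore of neurons and endocrine cells, had 19, 16, 19 and 10 counts in WS, WD, KS and KD, and a model log2 change with denervation of -0.84 (adjusted p = 0.13, edgeR). Cacna1a, the P/Q-type pore of motor nerve terminals and other neurons, had 79, 125, 99 and 130 counts and a model change of 0.25 (adjusted p = 0.356, edgeR). Per kb neither exceeded 0.53 CPM in any library, and both were below Cacnb1 and Cacna2d1 on that scale. Of the 7 RGK and channel genes that are not in the set, 4 passed downward with denervation, 0 upward and 3 neither way, while 6.24% of all genes tested passed downward and 6.84% upward. By DESeq2's Wald test, which called 1408 of all genes in either direction, Cacng7 and Cacnb3 (adjusted p = 0.0402) were kept. Rem1 was lost there, and Cacnb2 had no adjusted p. With total counts alone the tally was 1 downward (Cacng7) and 1 upward (Gem). Under that scaling, 2028 of all 13084 genes were called in either direction. By genotype, 0 of the 7 were called, beside 0.176% of all genes tested. Nothing is read from these small counts.

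**Figure D4:**
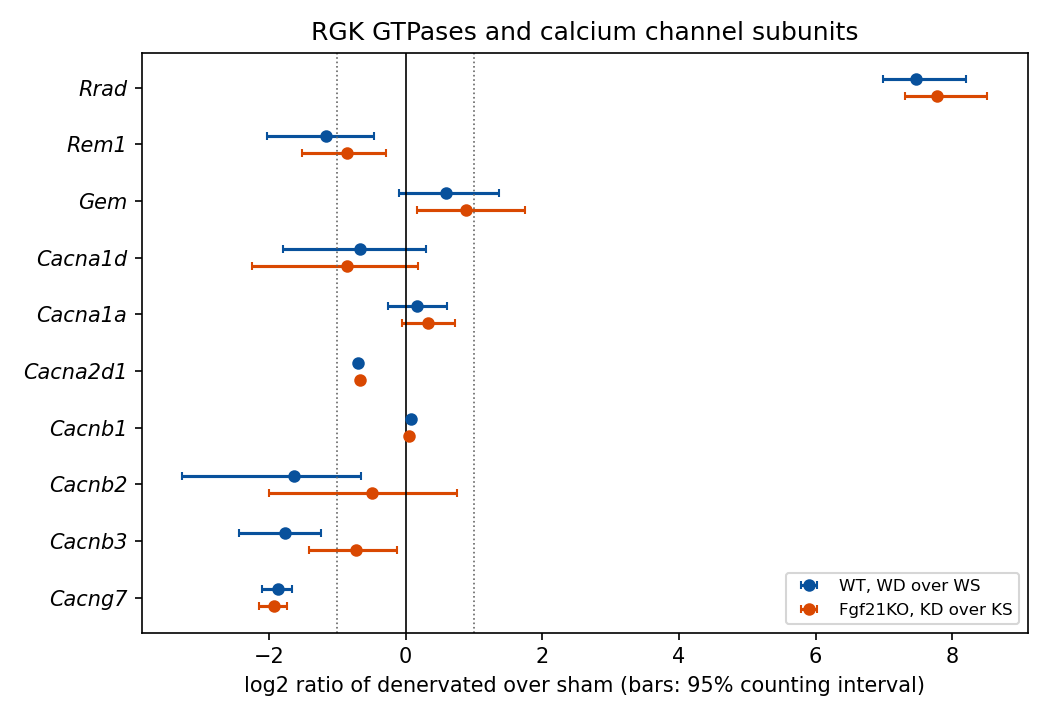
Log2 ratios of denervated over sham for Rrad, the other RGK genes and the calcium channel genes analysed, in WT (blue) and Fgf21KO (orange), with bars for the 95% counting interval and dotted lines at 2-fold. Rrad lay above 7 in both genotypes, Cacng7 near -1.9, and the other genes between -1.76 and 0.88.

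Other parts of the triad, the junction where L-type channels meet the sarcoplasmic reticulum, were read from a list of 23 genes, of which 9 were analysed. Of these, 1 passed upward with denervation and 8 did not pass, beside 6.84% of all genes upward and 6.24% downward, and the median log2 ratio was -0.29 in WD over WS and -0.51 in KD over KS. The riser was Atp2a2, the slow-muscle and cardiac calcium pump SERCA2, which went from 1014 to 6264 counts in WT and from 1051 to 5306 in Fgf21KO, with a model log2 change of 2.21 (adjusted p = 9.31e-20, edgeR). Below the 2-fold limit, Jph1, which ties the membranes of the triad together, had log2 ratios of -0.90 in WT and -0.98 in Fgf21KO, and Srl, a calcium-binding protein of the sarcoplasmic reticulum, had -0.74 and -0.91. Bin1, which shapes the transverse tubules, had 0.73 and 0.64, and it passed with total counts alone (model value 1.01).

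Proteins described as partners of RRAD include calmodulins, calmodulin-dependent kinase II and 14-3-3 proteins, and 14 of the 15 genes listed as partners were analysed. With denervation 2 passed upward, 1 downward and 11 did not pass, beside the same 6.84% and 6.24% of all genes, and nothing is read from these small counts. The list medians were 0.12 in WT and 0.06 in Fgf21KO. Camk2d rose by a model log2 value of 1.54 (adjusted p = 2.16e-16, edgeR) and Camk2b by 1.09 (adjusted p = 1.43e-13, edgeR), both subunits of calmodulin-dependent kinase II. Calm3, a calmodulin gene, fell by 1.04 on the log2 scale (adjusted p = 9.58e-13, edgeR), and it missed the 2-fold limit with total counts alone (-0.72). Camk2g, another kinase subunit, had log2 ratios of -0.96 and -0.85, short of the limit.

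The genes nearest to Rrad in pattern were found by the Euclidean distance between mean-centred log2 CPM over the 4 libraries, among the 11315 other genes whose mean count reached 50. They were Plekhh1 (distance 1.03), Runx1 (1.14), Ces2c (1.15), Emb (1.35) and Ankrd1 (1.45). Plekhh1, a protein with pleckstrin homology domains, had 8, 3182, 25 and 3521 counts in WS, WD, KS and KD. Runx1, a transcription factor induced in denervated muscle, had 44, 5422, 53 and 5459. Ces2c, a carboxylesterase, had 9, 1039, 3 and 933, and its 3 counts in KS left the KD over KS ratio of 7.48 with an interval of 6.67 to 10.50. Emb, a cell-surface glycoprotein, had 22, 2413, 29 and 2735 counts, and Ankrd1, a titin-binding protein of stretched muscle, had 323, 33261, 389 and 29336. Each of the 5 was far higher in both denervated libraries than in both sham ones. That pattern follows from choosing them by distance to Rrad. Ankrd1 was not low in sham muscle, at 13.9 CPM in WS and 13.1 in KS (percentiles 49.0 and 47.8 of all genes). All 5 share the same 4 libraries.

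Nearest to Cacnb1 were Banf1 (0.0145), Scnm1 (0.022) and Slc25a30 (0.0233), each of which had log2 ratios between 0.02 and 0.10 in the denervation comparisons. Nearest to Cacna2d1 were Socs2 (0.0411), an inhibitor of cytokine and growth hormone signalling, Slco2b1 (0.0441), an organic anion transporter, and Timm21 (0.0453), a subunit of a mitochondrial import complex. Their log2 ratios ran from -0.64 to -0.71, beside -0.69 and -0.66 for Cacna2d1. All of these genes share the 4 libraries with the subunit they resemble.

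Genes known to respond to denervation were read from a list of 16, of which 6 were analysed. The list was chosen with earlier results of these data known, so it is no independent check of the surgery. All 6 analysed passed upward, beside 6.84% of all genes tested. Among them were the acetylcholine receptor subunit Chrnb1 (log2 ratios 2.48 in WT and 2.65 in Fgf21KO), the stress gene Gadd45a (4.66 and 4.69) and the ubiquitin ligase gene Fbxo32 (1.13 and 1.30). The ratio of Rrad, a gene selected on this contrast, exceeded each of these. Runx1, at 6.40 and 6.57, was the closest to it.

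Markers of other cell types moved with surgery too. Over all genes tested, 6.84% passed upward and 6.24% downward. Macrophage markers, 4 of 4 analysed, summed to 11.2 and 11.4 CPM in the sham libraries and 33.1 and 30.6 in the denervated ones, and 3 of the 4 passed upward. The call of Adgre1 was lost by DESeq2's Wald test (log2 value 1.31), while Csf1r passed with total counts alone (1.08). Endothelial markers, 4 of 4, summed to 427 and 344 CPM in sham and 188 and 182 in denervated libraries, and 3 of the 4 passed downward. Smooth muscle and pericyte markers, 4 of 4, summed to 653 and 613 CPM in sham and 274 and 271 in denervated libraries, and all 4 passed downward. With total counts alone these 7 vascular calls missed the 2-fold limit. The vascular sums were lower in the denervated libraries, as were Cacna2d1 and Cacng7. So were the fibroblast and Schwann cell sums and Myh1, given below. The part of any of these in the results of Cacna2d1 and Cacng7 was not tested.

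Fibroblast markers, 5 of 5, summed to 586 and 573 CPM in sham and 381 and 395 in denervated libraries, with 0 of 5 passing. Schwann cell markers, 2 of 4, summed to 21.9 and 19.1 CPM in sham and 15 and 15.9 in denervated libraries, with 0 of 2 passing. These counts stand beside the same 6.84% and 6.24% of all genes, and nothing is read from them. Of the fibre-type markers, 1 of 9 fast and 2 of 5 slow were analysed. Fast Myh1 had log2 ratios of -0.63 and -0.30, and slow Tnnt1 rose (2.84 and 2.95) while slow Tnnc1 had 0.03 and 0.83. The smallest count of any gene in any library was 1, so a marker count above 0 says nothing of its cell type. Markers of satellite cells, adipocytes and cardiac muscle were not analysed here. The part of fibre type and of these cells in the ratios of Rrad and the subunits was not tested.

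In the annotation, Rrad (ENSMUSG00000031880) lies on the minus strand of chromosome 8 with 5 exons in its longest coding transcript, Cacnb1 (ENSMUSG00000020882) on the minus strand of chromosome 11 with 14, and Cacna2d1 (ENSMUSG00000040118) on the plus strand of chromosome 5 with 39. Each overlaps at least 1 gene on the opposite strand: Gm33023 for Rrad, Gm11629 for Cacnb1, and Gm43000 and Gm43491 for Cacna2d1. The library kit marks strand, but whether the counting used it is not given in the sources used here, so reads of a gene and of its opposite-strand neighbour cannot be told apart.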

How the data were processed

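TA muscle RNA was sequenced as 1 pooled library for each of 4 groups with a stranded mRNA kit. The authors deposited raw read counts per gene, and a second table named for FPKM whose deposited log2 values are scaled counts: the count multiplied by a factor common to the library, with 1 added before the log. FastQC and GRCm39 are named in the submitters' processing notes, while the aligner and counter are not given in the sources used here. The paper's methods name edgeR with an adjusted p below 0.05 and a 2-fold change.

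Counts were scaled by TMM in edgeR 4.0.16 (R 4.3.3). Tests covered genes whose mean count reached 10, and log2 ratios used a prior count of 2. The additive model had a common biological coefficient of variation of 0.0681, and p-values were adjusted by Benjamini-Hochberg over all 13084 genes. Intervals are exact binomial or Poisson limits from scipy 1.17.1, and that of a difference between ratios is a normal approximation on the log scale. With 1 library per group, model p-values measure only how far both effects add up across the 4 libraries, not the spread between mice. The scripts were tested on simulated data.

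The set and the gene lists were chosen with earlier results of these data known. Named genes were the set, every RGK and channel gene tested, the 2 highest and 2 lowest ratios of each other list in WD over WS, and the 5 (Rrad) or 3 nearest genes in pattern. Alternatives were DESeq2 1.42.0 size factors and Wald test, total counts, TMM without mitochondrial genes, filters of 0 and 50 on the mean count, the deposited log2 values, prior counts of 0.125 or 5, no fold threshold and, added after seeing the data, median transcript length. Lengths and strands are from GENCODE M21 (GRCm38), which is not the build of the notes, so no positions are given.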

Additional observations from a re-analysis of the deposited data

Results flagged for a closer look

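Fgf21KO over WT had opposite signs in sham and denervated muscle for 4 of the 10 RGK and channel genes analysed. Only this group was looked at, and the share of all genes with opposite signs was not computed, so nothing is read from the count. In no case was the difference tested, since the design leaves no degree of freedom for it. For Rrad the log2 ratio was -0.28 (-1.16 to 0.58) in sham and 0.02 (-0.03 to 0.07) in denervated muscle, a difference of 0.30. Cacna1a had -0.03 (-0.47 to 0.42) and 0.13 (-0.23 to 0.50), a difference of 0.16. Cacnb2 had -0.94 (-2.17 to 0.02) and 0.20 (-1.30 to 1.82), a difference of 1.14 that rests on 8 to 21 counts per library. Each of these intervals held 0. Cacnb3 had -0.96 (-1.49 to -0.48) and 0.07 (-0.64 to 0.80), a difference of 1.03 (0.23 to 1.89).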

How the results depend on the processing

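Of 399 values recomputed under an alternative, 355 were counted as the same, 28 moved further, 3 newly passed and 13 no longer passed. A ratio was the same if it moved within counting error, and a gene total if it stayed of similar size. A model effect was the same if it stayed on its side of the test, whatever its sign where it was not called. Effects without an adjusted p under an alternative were left out of these counts. No value past 2-fold or past its test turned sign. The deposited log2 values gave 6.57 and 6.73 for Rrad in WD over WS and KD over KS, and 1188, 1117, 29 and 25 genes at 2-fold in WD over WS, KD over KS, KS over WS and KD over WD, against 1936, 1780, 267 and 203. Total counts gave 0.37, 0.41 and 0.02 for Cacnb1 and -0.41, -0.30 and -0.03 for Cacna2d1 in WD over WS, KD over KS and KS over WS, with KD over KS minus WD over WS at 0.05 and 0.10, so that the KS over WS value of Cacna2d1 and that difference for Cacnb1 (-0.03 otherwise) turned sign. A mean count of at least 50 left 68 genes at 2-fold in KS over WS, 46 in KD over WD and 15 called by genotype (23 otherwise). DESeq2's Wald test called 13 by genotype. Without the fold limit, 88 were called by genotype and 7003 by denervation. Median transcript lengths gave Rrad to Cacnb1 ratios of 1.49 (WD) and 1.44 (KD), Rrad to Cacna2d1 ratios of 1.93 and 1.85, and Cacna2d1 to Cacnb1 ratios of 1.32 (WS), 0.771 (WD), 1.27 (KS) and 0.775 (KD). The cause of these shifts was not tested. No paired analysis was possible because a single pooled library stood for each group, and no replicate could be left out. Depth limits Rrad in sham muscle, where 24 and 25 counts were read.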
